A study of Mus musculus with 4 samples.

Results

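Matrix metalloproteinases were described through 10 genes (Mmp2, Mmp8, Mmp9, Mmp11, Mmp12, Mmp13, Mmp14, Mmp19, Mmp25 and Mmp27), of 16545 gene symbols in the authors' deposited table. They occupied 11 of its 18061 transcript rows, because Mmp19 has 2 transcripts. The genes were chosen by name from a list drawn up with the OHT to EtOH ratios of this same table known, so their ratios are given as a description and support nothing. The table holds 17 Mmp genes in all, and the list leaves out 7 of them, among them Mmp23, the one family gene with a lower OHT mean. The members fall into a neutrophil group (Mmp8, Mmp9 and Mmp25), a macrophage group (Mmp12, Mmp14 and Mmp19) and 4 others.

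The study measured messenger RNA in mouse leukaemic cells driven by MLL-AF9, a fusion oncogene of acute myeloid leukaemia, with 2 samples treated with EtOH and 2 treated with OHT, all for 72 h. Both groups were C57BL/6 cells of the genotype Ring1a-/-, Ring1bf/f and Cdkn2a-/-, taken from bone marrow and grown in liquid culture. Ring1 and Rnf2 encode RING1A and RING1B, the ubiquitin ligases of Polycomb repressive complex 1, and the table's column names call the OHT group a Ring knockout. OHT-treated cells lacking a floxed allele are not among the samples analysed, and effects of the treatment and of the deletion cannot be told apart. Nothing in the labels states that the samples of a treatment were grown apart, so a p here reflects the spread among 4 samples that may be technical repeats.

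Matrix metalloproteinases are zinc-dependent endopeptidases that are made as inactive precursors and, once activated, cut collagens, elastin, gelatin and other matrix and cell-surface proteins. Neutrophils store the collagenase MMP8 and the gelatinase MMP9 in their granules, while macrophages secrete the elastase MMP12. Tissue inhibitors of metalloproteinases (TIMPs) bind the active enzymes, and in many of these genes transcription is known to respond to AP-1, a dimer of FOS and JUN proteins.

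The table gives group means only, but each mean solved uniquely to whole reads of 2 libraries, called A and B within a group. The letters are arbitrary and are not tied to the replicate numbers of the labels. The 4 libraries held between 3841243 and 6255320 reads. A normalised read below is a solved read count divided by the library's size factor, a correction for depth that falls short for the densest transcripts, as described below. The targeted gene Rnf2 (NM_011277) had 828 and 448 reads in the EtOH libraries and 852 and 714 in the OHT libraries. It was therefore not lower in the libraries labelled OHT (limma-voom log2 fold change 0.25 ± 0.21 SE, adjusted p = 0.458). Ring1 (60 and 65 against 177 and 84 reads) and Cdkn2a (NM_009877, 72 and 29 against 52 and 46), which the labels give as deleted in every sample, also had reads. The deleted exons are not given in the sources used here, and a count over a whole transcript does not check the deletion, so OHT and EtOH below name the labelled treatment. Myeloid granule genes were present in every library: Ctsg, which encodes cathepsin G, had 1091 and 922 reads with EtOH and 655 and 766 with OHT.

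Within 250 bases before the start of a gene, the promoters of 7 members could be read from RefSeq (build GRCm38.p6), and 4 are shown because these genes lie in 1 run on chromosome 9 yet differ in their AP-1 letters. Each is the last 120 bases before the annotated start, on the + strand, 5′ to 3′, with a match to TGANTCA, the AP-1 motif searched on both strands, in capitals. The Mmp12 sequence precedes the start of the table's own transcript, NM_008605.
Mmp13 (chr9:7272394-7272513): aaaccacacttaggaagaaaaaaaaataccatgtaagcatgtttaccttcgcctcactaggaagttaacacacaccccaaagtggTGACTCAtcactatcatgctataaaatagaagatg
Mmp12 (chr9:7347254-7347373): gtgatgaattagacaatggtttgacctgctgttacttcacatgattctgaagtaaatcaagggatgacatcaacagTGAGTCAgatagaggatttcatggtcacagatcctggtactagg
Mmp8 (chr9:7558309-7558428): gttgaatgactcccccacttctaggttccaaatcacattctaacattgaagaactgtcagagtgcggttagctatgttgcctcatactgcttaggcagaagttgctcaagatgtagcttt
Mmp27 (chr9:7571276-7571395): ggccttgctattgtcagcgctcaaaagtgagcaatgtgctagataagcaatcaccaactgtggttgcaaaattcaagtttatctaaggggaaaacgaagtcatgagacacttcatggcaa
The match lay 35 bases before the start of Mmp13 and 44 before that of Mmp12. Mmp8 and Mmp27 had no match in the 250 bases.

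The authors' deposited table called 5 of the 10 genes (Mmp13, Mmp11, Mmp9, Mmp8 and Mmp27) higher with OHT, at an adjusted p under 0.05, and 0 lower. Of all transcripts in that table, 3.62% were called higher and 1.85% lower. By limma-voom on the solved reads, 8 members had at least 10 reads in 2 libraries and could be fitted, and 7 were called higher and 0 lower. Of all transcripts fitted, limma-voom called 9.72% higher and 5.49% lower. Mmp2 and Mmp14 had too few reads to be fitted. A gene that passes such a filter only through its OHT reads is bound to differ, and Mmp11, among the members called, passed it in that way. The contrast that gave these calls also chose the genes, so the counts were not read against those shares.

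All 10 members, counting Mmp14 with 2 and 3 reads in the groups, had a higher mean with OHT, with a median log2 fold change of 1.69 in the authors' deposited table against 0.04 over all symbols. Both OHT libraries lay above both EtOH libraries, in normalised reads, for 8 of the 10 members, and for 26.4% of all transcripts. The 2 exceptions were Mmp14 and the first transcript of Mmp19 (NM_021412). In bulk RNA, more cells of a type and more RNA per cell cannot be told apart.

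**Figure D1:**
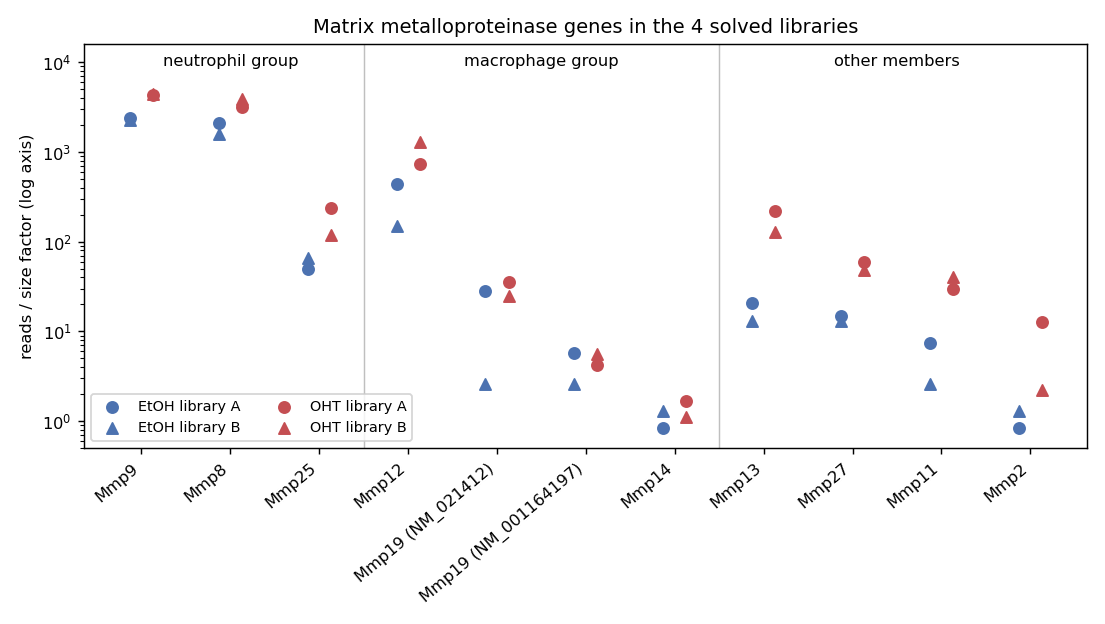
Normalised reads (reads divided by size factor, log axis) of each member transcript in the 4 libraries, with circles for library A and triangles for library B, blue for EtOH and red for OHT. Mmp8 and Mmp9 lie far above the rest, and the points of the 2 treatments overlap for both Mmp19 transcripts and for Mmp14.

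Mmp9 and Mmp8 made up most of the family's RNA. Together they took 87.4% and 90.2% of all Mmp reads in the EtOH libraries and 84.4% and 82.7% in the OHT libraries. All Mmp reads came to 0.0991% and 0.0846% of all reads with EtOH and to 0.188% and 0.199% with OHT.

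Mmp9 encodes gelatinase B, a gelatin-cutting enzyme of the late neutrophil granules. Mmp9 (NM_013599) had 2875 and 1727 reads in the EtOH libraries and 5205 and 3962 in the OHT libraries, or 2384 and 2249 against 4372 and 4423 normalised reads. In normalised reads the 2 libraries of each group lay close together and the groups did not overlap. The authors' deposited table gave Mmp9 means of 2317 and 4398, a 1.90-fold ratio with an adjusted p of 0.0200, and limma-voom gave a log2 fold change of 0.92 ± 0.19 (SE).

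Mmp8 encodes the neutrophil collagenase, which cuts fibrillar collagen. Mmp8 (NM_008611) had 2545 and 1204 reads with EtOH and 3818 and 3469 with OHT, or 2110 and 1568 against 3207 and 3873 normalised reads. The groups again did not overlap in normalised reads, with a wider spread than for Mmp9. The authors' deposited table gave Mmp8 a 1.92-fold ratio (adjusted p = 0.0294), and limma-voom a log2 fold change of 0.95 ± 0.22 (SE). The limma-voom call of Mmp8 was lost without EtOH library B (adjusted p = 0.0664) and without OHT library B (adjusted p = 0.0589).

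The ratios of these 2 genes, and their levels and spread between libraries, carry a limit of the table. In each library no transcript exceeded 1.76 to 1.85 reads per base of its length, over 17634 transcripts with a known length. Genes near that level had nearly the same reads whatever the depth: Actb, a cytoskeletal actin, had 2837, 2668, 2933 and 2796 reads in EtOH A, EtOH B, OHT A and OHT B. The median ratio of EtOH library A to B fell from 1.83 at 0.03 to 0.1 reads per base to 1.02 at 1.4 to 2 reads per base, and that of the OHT libraries from 1.35 to 1.02. At 1.0 to 1.2 reads per base, where both genes lie on average, the medians were 1.17 for EtOH and 1.08 for OHT. Division by the size factor therefore does not fully correct such genes for depth. Mmp9 stood at 0.906 and 0.544 reads per base with EtOH and at 1.64 and 1.25 with OHT, and Mmp8 at 1.05 and 0.496 against 1.57 and 1.43. In OHT library A only 9 transcripts had more reads per base than Mmp9, and 17 had more than Mmp8. With reads converted by an occupancy formula with 2 places per base, an alternative added after seeing the data, the log2 fold change became 1.52 for Mmp9 and 1.51 for Mmp8. That conversion did not remove the trend, since the median ratio of the EtOH libraries still fell to 1.04 in the densest group, and whether the deposited ratios understate the change of these genes was not tested.

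**Figure D2:**
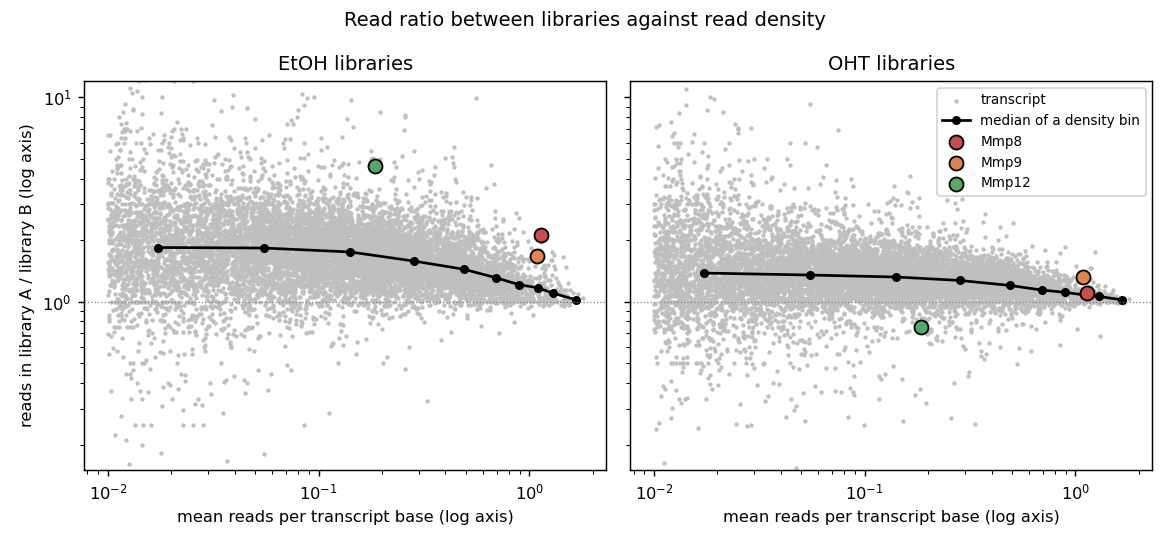
Reads in library A divided by reads in library B (log axis) against mean reads per transcript base over the 4 libraries (log axis), for EtOH on the left and OHT on the right. Grey points are transcripts with reads in both libraries (a few lie outside the range drawn), and the black line joins the medians of density bins, which fall to 1.02 in both panels. Mmp8 and Mmp9 lie at the dense end, and Mmp12 lies away from the median in both panels.

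Mmp25 encodes leukolysin, a metalloproteinase anchored to the neutrophil surface. Mmp25 (NM_001033339) had 60 and 50 reads with EtOH and 282 and 106 with OHT, or 49.8 and 65.1 against 237 and 118 normalised reads. Both OHT libraries were higher than both EtOH libraries, but they differed from each other by 2.0-fold. The authors' deposited table gave Mmp25 a 3.05-fold ratio that did not pass the threshold (adjusted p = 0.237). The limma-voom log2 fold change of Mmp25 was 1.61 ± 0.41 (SE), and its call was lost without EtOH library A (adjusted p = 0.0701) and without OHT library A (adjusted p = 0.249).

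Other neutrophil granule genes were counted beside them. Of 12 late granule markers in the authors' deposited table, 1 was called higher and 0 lower, 2 had an unadjusted p under 0.05 (both higher), and their median log2 fold change was 0.23. By limma-voom 2 of the 12 were called higher, Cxcr2 and Arg1, which encodes arginase, and 0 lower. The gene called by both was Cxcr2, a chemokine receptor of mature neutrophils, whose mean in the authors' deposited table was 624 with EtOH and 1743 with OHT (2.80-fold with an adjusted p of 4.01e-05). Summed over the list, normalised reads were 5061 and 7197 with EtOH and 7571 and 6291 with OHT, so the libraries of the 2 treatments overlapped. Of 5 azurophil granule markers, which mark the earlier promyelocyte stage, 0 were called by the authors or by limma-voom, 0 passed an unadjusted p of 0.05 in the authors' deposited table, and the median was -0.28. Of 6 neutrophil serine proteases and their inhibitors, 0 were called by either, 1 had an unadjusted p under 0.05 (lower with OHT), and the median was -0.42. For Serpinb1a, an inhibitor of neutrophil elastase, the authors' deposited table gave means of 2282 with EtOH and 1705 with OHT, at an adjusted p of 0.875. Slpi, another inhibitor of this list, had 1156 and 1041 reads with EtOH and 1138 and 1111 with OHT, nearly the same whatever the depth. Whether the limit on reads per base flattens the ratios of these granule lists was not tested.

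Mmp12 encodes macrophage elastase and was the most abundant macrophage-group gene. Mmp12 (NM_008605) had 529 and 115 reads with EtOH and 873 and 1156 with OHT, or 439 and 150 against 733 and 1291 normalised reads. The groups did not overlap, but EtOH library A lay 2.93-fold above EtOH library B. The authors' deposited table gave Mmp12 means of 295 and 1013, a 3.43-fold ratio with an adjusted p of 0.261, and limma-voom gave a log2 fold change of 1.83 ± 0.43 (SE, adjusted p = 0.0205). The Mmp12 log2 fold change was 2.71 when EtOH library A was left out and 1.15 when EtOH library B was. Its gene model overlaps Mmp1b on the opposite strand (GENCODE M21), and this kit does not mark strand.

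Of 15 macrophage markers in the authors' deposited table, 8 were called higher and 0 lower, 15 of 15 had a higher OHT mean, and the median log2 fold change was 2.65. The 7 not called include Emr1, a surface receptor of mature macrophages, with means of 1259 with EtOH and 2846 with OHT by the authors' deposited table (adjusted p = 0.461), and Gpnmb, a lysosomal glycoprotein, with 694 and 3318 (adjusted p = 0.128). The authors' deposited table gave Msr1, a scavenger receptor, a 4.55-fold rise, from 146 to 664, at an adjusted p of 1.03e-08. The complement gene C1qb had 1 and 1 reads with EtOH and 106 and 109 with OHT, and C1qc had 2 and 0 against 65 and 74. Summed normalised reads of the list were 4584 and 1500 with EtOH and 9209 and 11459 with OHT, with 5 markers at 0 in EtOH library B and 0 at 0 in the other libraries. EtOH library A thus held more of both Mmp12 and these markers than EtOH library B, and their part in the Mmp12 result was not tested.

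Mmp19 and Mmp14 lay far below Mmp12 in normalised reads per kilobase. Mmp19 encodes a secreted enzyme that cuts basement membrane components, and its transcript NM_021412 had 34 and 2 reads with EtOH and 42 and 22 with OHT. EtOH library A lay 10.8-fold above EtOH library B in normalised reads and also above OHT library B. The limma-voom log2 fold change of that Mmp19 transcript was 1.46 ± 0.80 (SE), and it became 3.22 when EtOH library A was left out and 0.08 when EtOH library B was. The other Mmp19 transcript, NM_001164197, had 7 and 2 reads with EtOH and 5 and 5 with OHT. Mmp19 overlaps Tmem198b on the opposite strand, a gene with 145, 64, 128 and 123 reads in EtOH A, EtOH B, OHT A and OHT B. Mmp14 encodes a membrane-bound collagenase that activates the MMP2 precursor, and it had 1 and 1 reads with EtOH and 2 and 1 with OHT, at the floor of 3 reads per group, so no fold is given.

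Among the other members, Mmp13, which encodes a collagenase best known from cartilage and bone, had the largest ratio of the 10 genes. Mmp13 (NM_008607) had 25 and 10 reads with EtOH and 259 and 116 with OHT, or 20.7 and 13.0 against 218 and 130 normalised reads. Each OHT library lay far above both EtOH libraries. The authors' deposited table gave Mmp13 means of 17.9 and 174, a 9.73-fold ratio with an adjusted p of 0.000909, and limma-voom gave a log2 fold change of 3.29 ± 0.49 (SE). In the 4 fits with 1 library left out the Mmp13 value ran from 2.89 to 3.66.

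Mmp11 encodes a stromelysin that is activated inside the cell by furin and known from stromal cells. Mmp11 (NM_008606) had 9 and 2 reads with EtOH and 35 and 36 with OHT, or 7.46 and 2.60 against 29.4 and 40.2 normalised reads. The groups did not overlap, but Mmp11 passed the limma-voom filter only through its OHT reads. The authors' deposited table gave Mmp11 a 5.86-fold ratio (adjusted p = 0.0329), the read ratio was 6.11 (95% counting interval 3.22 to 12.8), and limma-voom gave 2.69 ± 0.64 (log2, SE), or 3.40 without EtOH library A. Its gene model overlaps Chchd10 on the opposite strand, which had fewer reads with OHT (486 and 458 against 334 and 284, adjusted p = 0.385 by the authors' deposited table).

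Mmp27 is a stromelysin-like family member. Mmp27 (NM_001030289) had 18 and 10 reads with EtOH and 71 and 43 with OHT, or 14.9 and 13.0 against 59.6 and 48.0 normalised reads. The groups did not overlap and each was tight. The authors' deposited table gave Mmp27 a 3.64-fold ratio (adjusted p = 0.0322), and limma-voom a log2 fold change of 1.90 ± 0.46 (SE), whose call was lost without OHT library A (adjusted p = 0.118).

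Mmp2 encodes gelatinase A, a product of fibroblasts in most tissues. Mmp2 (NM_008610) had 1 and 1 reads with EtOH and 15 and 2 with OHT, so 1 library carried most of its OHT reads. The read ratio of Mmp2 was 8.04 with a 95% counting interval of 1.91 to 71.8, while the authors' deposited table, whose means carry 1 added read per library, gave 3.94-fold (adjusted p = 0.755).

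Markers of stromal cells and osteoclasts, other known sources of Mmp2, Mmp11 and Mmp13, had low sums that were larger with OHT. Of 5 fibroblast and stromal markers in the authors' deposited table, 2 were called higher (Thy1, a surface glycoprotein also found on other cells, and Col1a1, a collagen chain), and summed normalised reads were 29.0 and 26.0 with EtOH and 268 and 511 with OHT. Thy1 supplied most of that sum, with 278 and 431 OHT reads, whereas Col1a1 had 4 and 4 reads with EtOH and 38 and 24 with OHT. Other genes of the list were at the floor: the receptor genes Pdgfra and Pdgfrb and the collagen gene Col1a2. Pdgfra had 0 and 0 reads with EtOH and 2 and 1 with OHT, Pdgfrb had 0 and 0 against 1 and 2, and Col1a2 had 0 and 3 against 0 and 0. Of 4 osteoclast markers 1 was called higher in the authors' deposited table, Dcstamp, a fusion receptor, and the sums were 24.0 and 5.21 with EtOH and 115 and 198 with OHT. Dcstamp had 2 and 0 reads with EtOH and 18 and 26 with OHT. Most of the sum came from Atp6v0d2, with 24 and 2 reads against 90 and 141 (adjusted p = 0.0814 by the authors' deposited table). Limma-voom could fit 2 of the 4 and called 2 higher and 0 lower, and Dcstamp passed its filter only through its OHT reads. T and B cell markers summed to between 3.32 and 10.1 normalised reads per library, and endothelial markers to between 15.6 and 34.8, with 0 of 4 and 0 of 3 called by the authors or by limma-voom and 0 with an unadjusted p under 0.05 in the authors' deposited table. Of 6 erythroid and megakaryocyte markers 2 were called higher there (Pf4 and Epor), and of 7 mast cell and eosinophil markers 0 were, with 1 at an unadjusted p under 0.05; limma-voom called 1 of these 7 lower. The part of such cells in the member ratios was not tested.

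**Figure D3:**
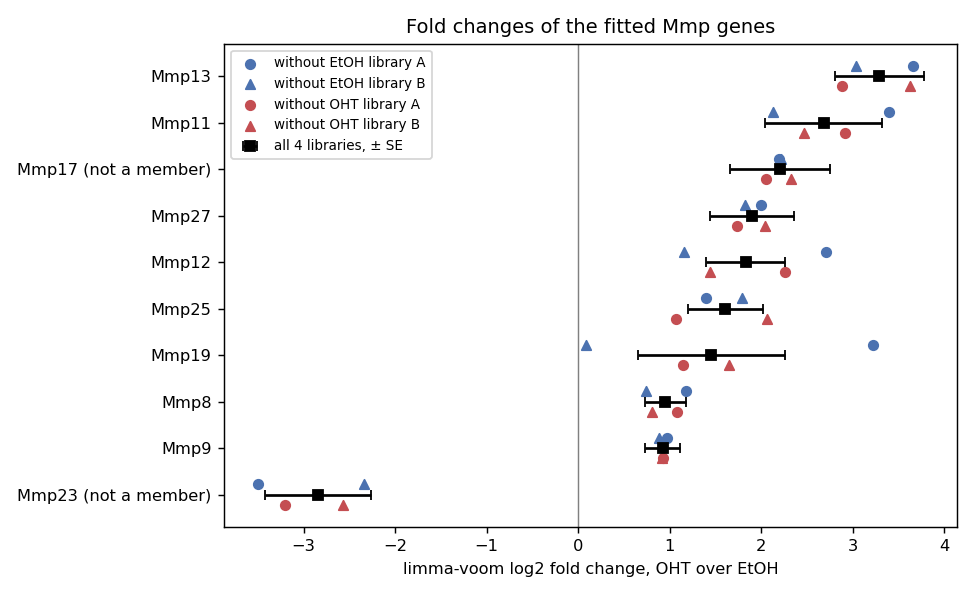
Log2 fold change, OHT over EtOH, of the 10 Mmp genes that limma-voom could fit, with black squares and SE bars for all 4 libraries and coloured points for fits with 1 library left out. Mmp9 and Mmp8 have the narrowest bars, Mmp19 runs from 0.08 to 3.22 with the library left out, and Mmp23 is the only one below 0.

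Levels of the members were compared per kilobase of transcript, as mean normalised reads. With EtOH, Mmp8 (758) and Mmp9 (730) led and their libraries overlapped, followed by Mmp12 (81.6), Mmp25 (12.7) and Mmp13 (6.31). Mmp13 did not differ beyond its spread from Mmp19 (4.53), nor Mmp19 from Mmp11 (2.20). With OHT the order was Mmp8 (1460), Mmp9 (1385), Mmp12 (281), Mmp13 (64.9), Mmp25 (39.2), Mmp11 (15.2) and Mmp19 (8.79). Mmp8 and Mmp9 overlapped here too, as did Mmp13 and Mmp25. Mmp27 had no length in the annotation used and was not placed. Outside the list, Mmp23 had 76.1 with EtOH (46.8 and 105 in the libraries), overlapping Mmp12, and 9.07 with OHT.

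Of the 7 Mmp genes outside the list, 0 were called in the authors' deposited table, 2 had an unadjusted p under 0.05, and 2 were called by limma-voom. Mmp23, a membrane-anchored member, went the other way from all 10 listed genes. Mmp23 (NM_011985) had 81 and 116 reads with EtOH and 19 and 9 with OHT, or 67.2 and 151 against 16.0 and 10.05 normalised reads, with no overlap. Its means in the authors' deposited table were 110 and 14.0 (7.88-fold lower, adjusted p = 0.136), so it was not called there. Limma-voom gave -2.85 ± 0.58 (log2, SE, adjusted p = 0.0122), and the value ran from -3.50 to -2.34 in the 4 fits with 1 library left out. With OHT only library A reached 10 reads, so the OHT libraries of Mmp23 alone would not have passed the limma-voom filter.

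Mmp17, a membrane-anchored member, had 8 and 5 reads with EtOH and 42 and 26 with OHT. It passed the limma-voom filter only through its OHT reads, which favoured a call in advance. By limma-voom Mmp17 changed by 2.21 ± 0.55 on the log2 scale (SE, adjusted p = 0.0250), and the call was lost without OHT library A (adjusted p = 0.126). Mmp15, also membrane-bound, had 3 and 2 reads against 14 and 9, and the matrilysin gene Mmp7 had 3 and 2 against 2 and 15. Mmp28, Mmp21 and Mmp20 were at or under 3 reads in each group.

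On chromosome 9, 10 Mmp genes follow each other without a break in the RefSeq gene order (GRCm38.p6), and 6 of them were measured, 4 of them members. In that order the log2 fold changes in the authors' deposited table were 3.28 for Mmp13, 1.78 for Mmp12, 0.94 for Mmp8, 1.87 for Mmp27 and 1.497 for Mmp7. These 5 were above 0, the last on few reads, and Mmp20, between Mmp27 and Mmp7, was at the floor. Mmp1b, Mmp3, Mmp1a and Mmp10, between Mmp12 and Mmp8, were not analysed here. The neighbours on both sides, Dync2h1, Dcun1d5, Tmem123 and Birc2, had log2 fold changes between -0.17 and 0.11 in the authors' deposited table, each with an adjusted p of 1. Birc3, the next gene, which encodes an inhibitor of apoptosis, had means of 465 and 839 there (adjusted p = 0.0700; limma-voom adjusted p = 0.0397). No test compared the cluster with its neighbours, and the cluster genes were in part chosen for their ratios.

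**Figure D4:**
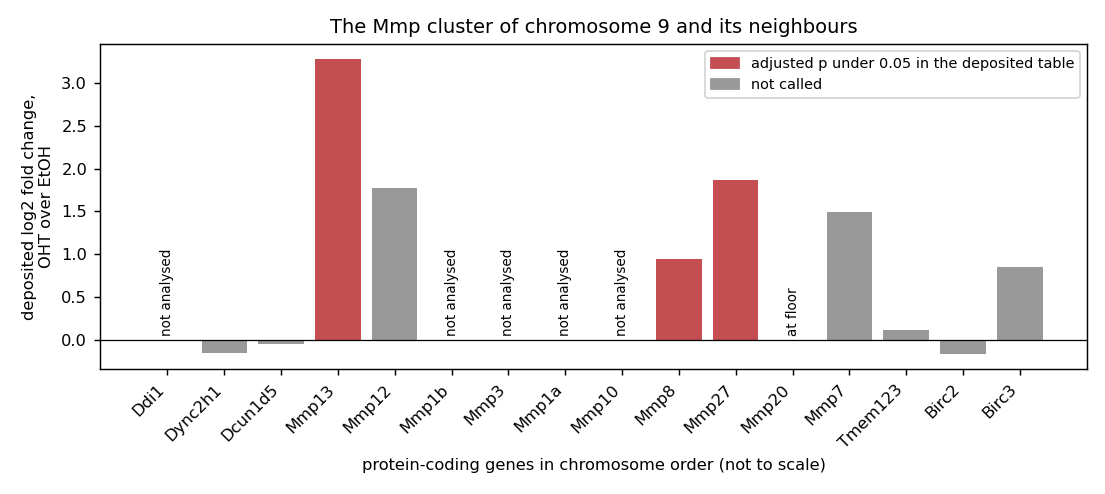
Log2 fold change, OHT over EtOH, from the authors' deposited table for the Mmp genes of chromosome 9 and their neighbours in gene order, with red bars for genes called at an adjusted p under 0.05. Mmp13, Mmp12, Mmp8, Mmp27 and Mmp7 have bars above 0 and Mmp20 is at the floor of 3 reads, while Dync2h1, Dcun1d5, Tmem123 and Birc2 lie near 0.

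Promoter letters were compared over the 250 bases before each start, and a gene with several annotated starts counts as holding a motif where any of them does. The AP-1 motif TGANTCA occurred in 6.75% of 32851 RefSeq mouse promoters. It occurred in 8 of the 10 cluster genes, and Mmp8 and Mmp27, the members printed without capitals above, were the 2 without it. It occurred in 0 of the 8 Mmp genes outside the cluster that had an entry. The TATA motif TATAAA occurred in 7 of the 10 cluster genes and 1 of the 8 others, against 12.4% of all promoters. Among the members, the RUNX motif TGTGGT (14.0% of promoters) occurred in Mmp13, Mmp14 and Mmp27, the PU.1 motif GAGGAA (23.3%) in Mmp12, Mmp25 and Mmp8, and the C/EBP motif TTNNGNAA (36.8%) in Mmp12, Mmp27 and Mmp8. For Mmp12 the 2 last motifs matched only before another annotated start upstream, which had 0 AP-1 matches, and the start of the table's own transcript had 0 matches of either. Every member had a higher OHT mean and was chosen with its ratio known. A split of the members by AP-1 letters therefore had to come out higher on both sides, and no conclusion is drawn from it. A match is a run of letters, not a measured site.

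Of 21 transcription factors known to act at Mmp promoters, 2 were called higher in the authors' deposited table and 0 lower, with a median log2 fold change of 0.21. Of all transcripts there, 3.62% were called higher and 1.85% lower. The 2 called, Fos and Jun, encode AP-1 subunits. The AP-1 genes Fosl1, Junb, Fosb and Fosl2 of the same list were not called there (log2 fold changes of 0.15, 0.41, 0.92 and 1.05). Limma-voom called Fosl2 higher (adjusted p = 0.0341). Fos had 160 and 50 reads with EtOH and 755 and 403 with OHT (the authors' deposited table has a ratio of 5.43, adjusted p = 6.13e-05). Jun had 192 and 110 reads against 574 and 432 (the authors' deposited table has a ratio of 3.17, adjusted p = 2.95e-05). Both OHT libraries lay above both EtOH libraries for each.

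Inhibitors and activators of the enzymes were measured alongside. Of 5 inhibitors 1 was called higher in the authors' deposited table: Timp2, which blocks active metalloproteinases and also helps MMP14 to activate the MMP2 precursor. Timp2 had 442 and 232 reads with EtOH and 1450 and 951 with OHT (ratio 3.40 by the authors' deposited table, adjusted p = 6.51e-07). Of 10 activators and plasminogen system genes 1 was called higher: Serpine2, an inhibitor of plasminogen activators and thrombin, with 84 and 49 reads against 1138 and 691 (ratio 12.8 by the authors' deposited table, adjusted p = 1.11e-23). Of these 10, 4 had an unadjusted p under 0.05 there (all higher). Limma-voom could fit 8 and called 3 higher and 0 lower. Among the 3 were Plau (41 and 8 reads against 135 and 219) and Serpinf2 (1 and 1 against 19 and 10), which passed the filter only through its OHT reads. Of 11 genes whose products bind metalloproteinases 1 was called higher, Lrp1, an endocytic receptor that clears MMP9 and MMP13 (784 with EtOH and 2831 with OHT by the authors' deposited table, adjusted p = 0.0240). Of these 11, 3 had an unadjusted p under 0.05 there (all higher), and limma-voom called 2 higher and 0 lower.

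Other protease families were counted in the same way. Of 9 ADAM genes, membrane-bound sheddases, 0 were called by the authors, and 0 had an unadjusted p under 0.05 in the authors' deposited table. Limma-voom could fit 4 of the 9 and called 0. The means of Adam8, a leukocyte sheddase, were, in the authors' deposited table, 3104 with EtOH and 3995 with OHT (adjusted p = 0.977). Of 12 ADAMTS genes, which cut proteoglycans and procollagen, 0 were called by the authors and 1 had an unadjusted p under 0.05. Limma-voom could fit 4 of the 12 and called 1 higher, Adamts7, which passed the filter only through its OHT reads. Of 13 cathepsins, the lysosomal proteases, 1 was called higher in the authors' deposited table, Ctsh (means 545 and 1234, adjusted p = 0.00146), though 13 of 13 had a higher OHT mean, with a median log2 fold change of 0.79. Over all 18 lists, 20 of 150 genes measured were called higher in the authors' deposited table and 0 lower, and 8 of the 20 were macrophage markers. Of all transcripts, 3.62% were called higher there and 1.85% lower. Limma-voom could not fit every listed gene and called 33 higher and 2 lower, beside 9.72% and 5.49% of all transcripts fitted. The lists were chosen with earlier results of these data known, so the counts were not read against those shares.

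**Figure D5:**
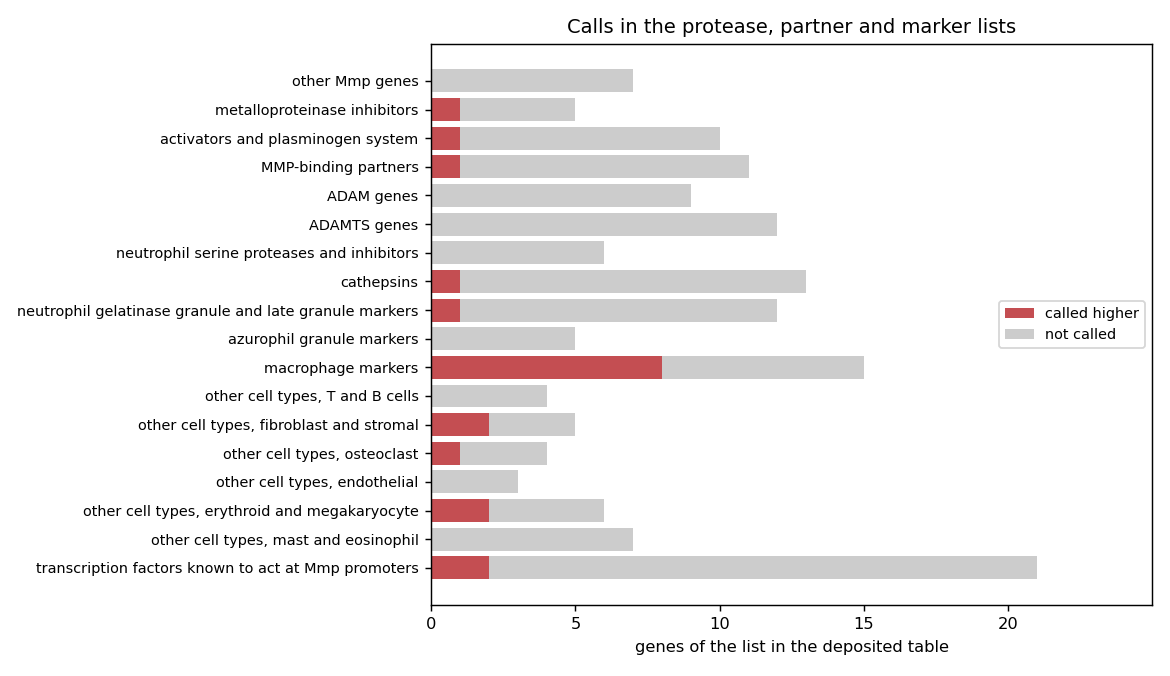
Genes of each list found in the authors' deposited table, with the number called higher in red and the number not called in grey. No gene of any list was called lower there, and macrophage markers have the most calls, 8 of 15.

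For the 3 most abundant members, the transcripts with the most similar pattern over the 4 libraries were sought among 7386 transcripts with a mean of at least 100. Likeness was the Euclidean distance between centred log2 normalised reads. Nearest to Mmp9 were Daglb (0.0862), Kif1c (0.109) and Blvrb (0.112), and nearest to Mmp8 were Hs3st3b1 (0.0309), Smpd1 (0.0957) and Mfhas1 (0.104). Nearest to Mmp12 were Vopp1 (0.123), Itgb3 (0.292), the integrin beta chain of platelets and osteoclasts, and Cd274 (0.319), which encodes the checkpoint ligand PD-L1.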

How the data were processed

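Per the labels' protocols, the RNA came from an RNeasy extraction and was prepared with the TruSeq RNA kit (version 2), which does not mark strand. TopHat, DESeq and build mm9 are named, without versions or roles, in the submitters' processing notes. The counting program is not given in the sources used here.

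The only file is the authors' own comparison. Its signal columns are, per the file headers, base means of the 2 groups, here averages of normalised reads over 2 libraries. The deposited ratio sets OHT over EtOH means, and a deposited log2 column repeats it on that scale. Each transcript also has a deposited p-value and an adjusted p.

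Whole reads of both libraries were recovered from each mean, allowing for 1 read that the authors' means carry per library before scaling; 100% of 18061 transcripts had a unique solution. In the order EtOH A, EtOH B, OHT A, OHT B, size factors were 1.206, 0.768, 1.191 and 0.896 and totals 6255320, 3841243, 5687967 and 4509718 reads. The recovered reads entered a limma-voom fit on treatment (limma 3.58.1, R 4.3.3), with at least 10 reads in 2 libraries, 2 residual degrees of freedom and Benjamini-Hochberg adjustment. The solving and fitting steps were tested on simulated data. Groups of at most 3 reads are at the floor, and 95% intervals are exact and cover counting error only, since PCR reads are not independent molecules.

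Lengths come from GENCODE M21 and promoters from RefSeq GRCm38.p6, not from mm9, so only promoter coordinates are given. Promoters of Mmp2, Mmp9 and Mmp19 were not used here. Where a listed gene has several transcripts, the one with the highest mean was used. Named were all Mmp genes, up to 4 called genes of each list by adjusted p (or the 2 with the highest mean), and the 3 nearest transcripts of the 3 most abundant members; 1 marker that this rule names is not reported here. The members and lists were chosen with earlier results of these data known. Neighbouring genes, genes with overlapping models, genes illustrating the limit on reads per base, and some list genes outside this rule were added.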

Additional observations from a re-analysis of the deposited data

How the results depend on the processing

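The count of 5 members called higher fell to 1 (Mmp13) at an adjusted p under 0.01. It lay between 5 and 7 with the threshold at 0.1 and in the limma-voom fits with other scalings, filters or 1 library left out, and 0 members were called lower in any of them. Of 108 member values under alternatives none changed sign. The limma-voom calls of Mmp8, Mmp25 and Mmp27 were each lost in some fits with 1 library left out. Their log2 fold changes in those fits ran from 0.75 to 1.18 for Mmp8, 1.07 to 2.07 for Mmp25 and 1.73 to 2.04 for Mmp27. Mmp11 and Mmp27 could not be fitted under the strictest read filter. For the lists, limma-voom called 33 genes higher (28 to 46 with 1 library left out) and 2 lower (2 to 7), against 20 and 0 in the authors' deposited table, and the cause was not tested. With 10 added to both means, the log2 fold change was 1.51 for Mmp11 and 0.60 for Mmp2, since both are low. No paired analysis was possible because the solved libraries carry no replicate number. Depth limits Mmp2, Mmp14 and Mmp19, and the limit on reads per base bears on Mmp8 and Mmp9. Whether it also bears on the granule lists set beside them was not tested.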
